A study of Mus musculus with 6 samples.

Results

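A set of 10 genes for secreted and lipid-handling proteins of damage-associated microglia was followed: Spp1, Gpnmb, Lgals3, Lgals1, Igf1, Fabp5, Fabp3, Plin2, Lyz2 and Cd52. They were chosen by name, as a list of 10 of the 49585 genes in the count files, and not by a threshold on measured values. The choice was made with earlier results of these data known, so counts of calls over the list are a description. Bulk RNA sequencing was done on microglia, the macrophages that live in brain tissue, with 3 libraries labelled WT (wild type) and 3 labelled IRF8KO, a label for knockout of the transcription factor IRF8. All mice were male and 3 months old, no treatment was given, and the cells of each brain were freed with no enzyme digestion and collected in TRIzol by cell sorting. The cDNA was amplified with the SMART-Seq v4 kit and tagged with Nextera XT. Strain, allele and the cells in which the knockout acts are not given in the sources used here, so the groups are known by their labels alone.

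Microglia that meet damaged neurons, plaques or myelin debris switch on a set of genes for engulfment, lysosomal digestion and lipid handling, a state often called damage-associated. Part of that set is exported: osteopontin (Spp1), insulin-like growth factor 1 (Igf1), galectins and lysozyme leave the cell and can act on neighbours, while GPNMB sits in membranes of lysosomes and at the cell surface. Another part keeps engulfed lipid in store, with fatty-acid-binding proteins as carriers and perilipin 2 (Plin2) as the coat of lipid droplets.

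The targeted gene, Irf8, was counted in every library. Its level, in CPM (counts scaled to a common library size), was 1016 ± 336 in WT and 747 ± 99.9 in IRF8KO (SD, n = 3 each), and the ranges overlapped. The log2 fold change of IRF8KO over WT was -0.44 (edgeR quasi-likelihood test with Benjamini-Hochberg adjustment, adjusted p = 0.368). With library size as the only scaling it was called lower (log2 fold change -0.90, edgeR adjusted p = 0.00763, range over 17 alternatives 0.00763 to 0.676). Below, "IRF8KO" means the libraries with that label.

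Libraries held 3658917 to 10859529 gene counts in WT and 8994860 to 11098363 in IRF8KO. A gene was called when its adjusted p was under 0.05 over the 11041 genes tested. Of these, 1064 were higher and 1045 lower in IRF8KO, and the median log2 fold change over all of them was -0.11. Apoe alone took 25.5% to 33.7% of all gene counts in IRF8KO and 0.154% to 0.324% in WT, so the scaling matters: by library size alone the calls split into 651 higher and 1908 lower and the median was -0.61. In bulk RNA, fewer cells of a type and less RNA per cell cannot be told apart. All 13 microglial marker genes fixed for reference had counts in all 3 WT libraries and 12 of 13 in all 3 IRF8KO libraries, where Sall1 was at 0. Of the 13, 7 were called lower, P2ry12 and Cx3cr1 among them, and 1 higher, with a median log2 fold change of -1.91. Their summed level was 44600 to 72180 CPM in WT and 33290 to 46490 CPM in IRF8KO. Border-associated macrophages are the macrophages of the brain's surfaces and vessels. Their 12 markers summed to 611.9 to 835.2 CPM in WT and 3819 to 5036 CPM in IRF8KO, with Lyve1 and Cd209f at 0 in every library. All 8 tested markers were called higher, Pf4 and Ms4a7 among them. Over all tested genes 9.64% were called higher and 9.46% lower. Of the 12 markers, 6 had counts in all 3 WT libraries and 8 in all 3 IRF8KO libraries. A marker scarce in WT can pass the filter on low counts only through IRF8KO. The 8 calls are therefore a description and not support. The 10 neutrophil markers other than Csf3r summed to 362 CPM in IRF8KO replicate 2, with S100a8 at 121 CPM and Ngp at 79.2 CPM, and to at most 4.17 CPM in any other library. The 10 monocyte markers summed to 55.6 CPM in that library and to 0.827 to 4.33 CPM in the others. The 10 neuronal markers summed to 0.637 to 12.7 CPM in WT and 31.8 to 51.5 CPM in IRF8KO. The 12 lymphocyte markers summed to 519 to 859 CPM in WT and 34.8 to 45.1 CPM in IRF8KO, with Cd79b and Ighm called lower and Cd4 higher. Of 6 tested astrocyte markers, 4 were called higher and 1 lower, with sums of 191 to 222 CPM in WT and 149 to 260 CPM in IRF8KO. Endothelial markers summed to 18.9 to 33.3 CPM in WT and 7.38 to 12.2 CPM in IRF8KO, and red blood cell markers to 0 to 57.6 CPM in WT and 53.8 to 437 CPM in IRF8KO, highest in replicate 3. Oligodendrocyte markers summed to 285 to 700 CPM in WT and 484 to 692 CPM in IRF8KO. Whether cells other than microglia contribute to the results that follow was not tested.

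Of the 10 genes, 8 passed the filter on low counts. Of those 8, 5 were higher in IRF8KO (Gpnmb, Lgals1, Igf1, Plin2 and Lyz2), against 9.64% of all tested genes called higher. Lgals3, Fabp5 and Cd52 were not called, and Spp1 and Fabp3 had too few counts for the test. The count of members called lower was 0 in edgeR against 9.46% of all tested genes, 0 at an unadjusted p under 0.05, and 0 in DESeq2 and in limma-voom. The groups did not overlap for any of the 10 genes, where 37.9% of all tested genes had groups without overlap. Among the 8 tested, 7 lay higher in all IRF8KO libraries (background 20.0%) and 1, Lgals3, lay lower (background 17.9%). The median log2 fold change of the 8 was 1.97. The filter asks for 3 libraries over a set level. Gpnmb, Igf1 and Fabp5 met it in the IRF8KO libraries and not in the WT libraries, and Lgals3 met it in the WT libraries and not in all of IRF8KO. These 4 entered the test through the group where they are high, so the counts and the median above describe the tested genes and are not support for a shift of the list. Of the 5 called genes, Lgals1, Plin2 and Lyz2 met the filter in both groups.

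**Figure D1:**
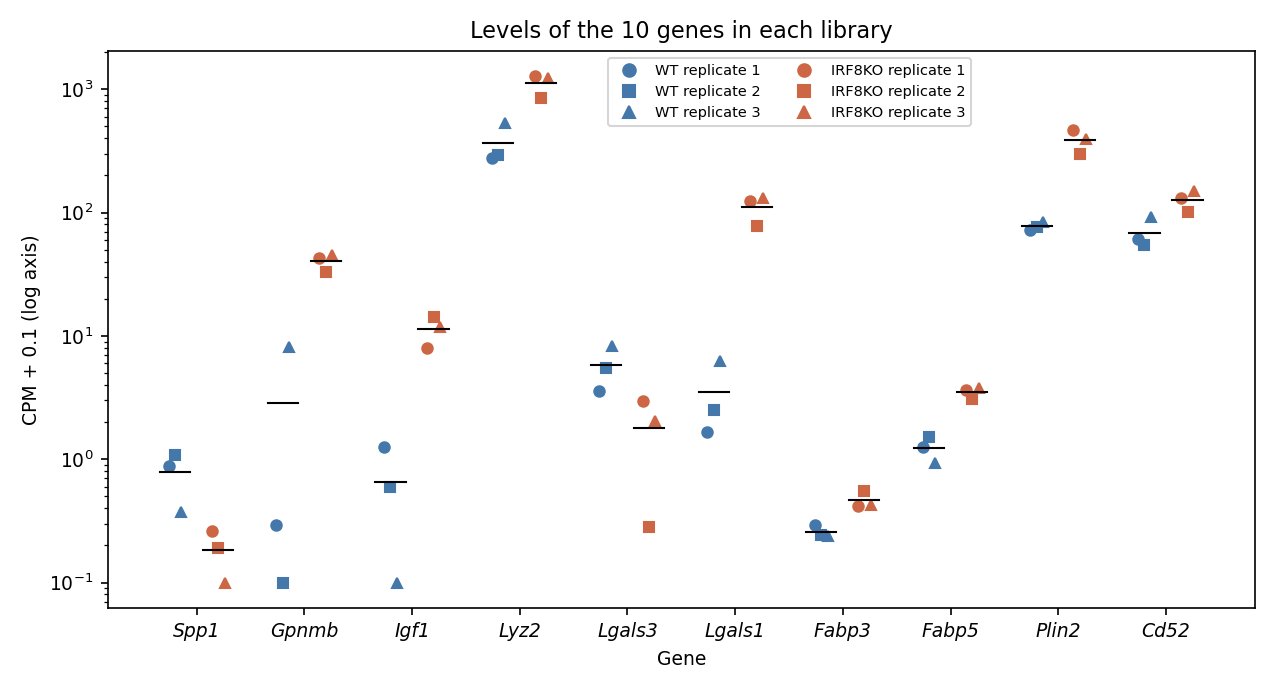
Level of each of the 10 genes in each library, in CPM plus 0.1 on a log axis, with 1 point per library and a black bar at the group mean (n = 3 WT and 3 IRF8KO). The IRF8KO points lie above the WT points for 8 genes and below them for Lgals3 and Spp1.

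Levels compared between genes per kb of exonic length showed a steep order. In WT, Lyz2 led with 278 CPM per kb, followed by Cd52 with 57.9 and Plin2 with 22.1, each clear of the next. Lgals1 (3.75) and Lgals3 (3.05) overlapped each other and lay above Gpnmb (0.419), Spp1 (0.414), Fabp5 (0.319) and Fabp3 (0.192), in which each neighbour overlapped the next, and Igf1 was lowest with 0.0560 CPM per kb. In IRF8KO, Lyz2 again led with 850 CPM per kb. Lgals1 (123), Plin2 (110) and Cd52 (107) formed a second tier whose ranges overlapped, and Gpnmb stood alone at 6.19. Igf1 (1.13), Fabp5 (0.951), Lgals3 (0.901) and Fabp3 (0.444) overlapped their neighbours, and Spp1 was lowest with 0.0506 CPM per kb. The order is that of group means: in WT replicates 1 and 2 Lgals1 lay below Lgals3 and Igf1 above Gpnmb.

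By share of the library, the 10 genes took 0.0590%, 0.0564% and 0.0665% of all counts in WT replicates 1, 2 and 3, and 0.142%, 0.141% and 0.164% in IRF8KO replicates 1, 2 and 3. Lyz2 alone supplied 66.3% to 72.7% of these counts in WT and 61.7% to 62.3% in IRF8KO. Any summed value over the list is therefore mostly a value of Lyz2, and the genes are described one by one.

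Among the lipid-handling genes, Plin2 (ENSMUSG00000028494, chromosome 4, 86648386 to 86670060, minus strand, GRCm38) encodes a protein that coats lipid droplets and shields them from lipases. Because it was the lipid gene with the largest counts among the 10, the bases before its RefSeq start are shown (GRCm38.p6, chr4:86670060-86670309, minus strand, 5′ to 3′). Capitals mark a nuclear receptor half-site, AGGTCA, that reads TGACCT on this strand at position -218, and the first bases of the E-box CACGTG, the letters that MiT/TFE factors of the lysosome can bind, which begins at -4 and runs across the start.
Plin2: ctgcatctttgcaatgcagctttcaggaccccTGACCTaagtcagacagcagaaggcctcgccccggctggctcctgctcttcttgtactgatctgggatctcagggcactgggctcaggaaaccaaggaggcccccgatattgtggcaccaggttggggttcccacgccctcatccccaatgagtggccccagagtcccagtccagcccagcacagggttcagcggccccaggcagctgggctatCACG
Positions count back from the start, with -1 the last base shown. The E-box was present in 7.15% and the half-site in 16.3% of all 32851 RefSeq promoter windows of the same length (250 bases before to 50 after a start, both strands searched). A match of letters is a description and not evidence of binding.

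Plin2 was at 72.2, 76.4 and 83.8 CPM in WT replicates 1, 2 and 3, and at 467, 299.7 and 396 CPM in IRF8KO replicates 1, 2 and 3. The WT libraries were close together, and the lowest IRF8KO library was well above the highest of them. Plin2 rose 5.0-fold in mean CPM, from 77.5 ± 5.89 to 388 ± 83.9 (SD, n = 3), with a log2 fold change of 2.32 (SE 0.29, edgeR adjusted p = 0.000281). It was called in all 17 alternatives run. The retrocopy Gm12551, which holds 4.89% of the 50-base stretches of the Plin2 transcripts, had 1 count in all libraries together.

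The other genes of the lipid droplet list included calls in both directions. Of 26 genes, 20 were tested, 5 were higher (Plin2 among them) and 3 lower, against 9.64% and 9.46% of all tested genes, and the median log2 fold change was -0.14, near the -0.11 of all tested genes. G0s2, which encodes an inhibitor of the main triglyceride lipase, was at 0.584, 0.496 and 2.48 CPM in WT replicates 1, 2 and 3 and at 79.9, 62.5 and 82.6 CPM in IRF8KO. It met the filter through the IRF8KO libraries alone, was low in WT and rose with a log2 fold change of 6.02 (SE 0.54, edgeR adjusted p = 2.68e-05). That value was 7.16 without WT replicate 3 and 5.01 with an offset for GC content and length. Mgll, the monoacylglycerol lipase, fell from 84.1 ± 16.9 to 17.1 ± 6.19 CPM (log2 fold change -2.31, SE 0.34, edgeR adjusted p = 0.000787). Lipe, the hormone-sensitive lipase, fell from 59.0 ± 16.0 to 23.7 ± 1.02 CPM (log2 fold change -1.31, SE 0.29, edgeR adjusted p = 0.00927), although 15.6% of its exonic length is shared with a neighbour and its call was lost without IRF8KO replicate 1 or 3. Plin3, a second droplet coat protein, rose from 51.3 ± 14.0 to 110 ± 28.5 CPM (log2 fold change 1.10, SE 0.31, edgeR adjusted p = 0.0298), and lost its call in 5 of 17 alternatives, library size alone among them. Plin1, Cidea and Cidec were at 0 in every library.

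The droplet genes outside the naming rule, picked for mention after their values were seen, were Hilpda, Soat2, Lpin2 and Pnpla2. Hilpda, a droplet protein that also inhibits the triglyceride lipase, rose from 17.4 ± 5.47 to 36.4 ± 6.12 CPM. Its log2 fold change was 1.07 (SE 0.34, edgeR adjusted p = 0.0447). Soat2, which makes cholesteryl esters, rose from 1.85 ± 0.729 to 8.27 ± 5.75 CPM with an edgeR adjusted p of 0.0471. It was at 14.3, 7.72 and 2.82 CPM in IRF8KO replicates 1, 2 and 3 and at 2.62 CPM in WT replicate 3. Lpin2, a phosphatidate phosphatase, fell from 68.5 ± 29.2 to 30.7 ± 0.715 CPM with an edgeR adjusted p of 0.0322. How far the Hilpda, Soat2 and Lpin2 calls hold over the alternatives is not given here. Pnpla2, the main triglyceride lipase itself, had a log2 fold change of -0.12 and was not called (edgeR adjusted p = 0.844).

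**Figure D2:**
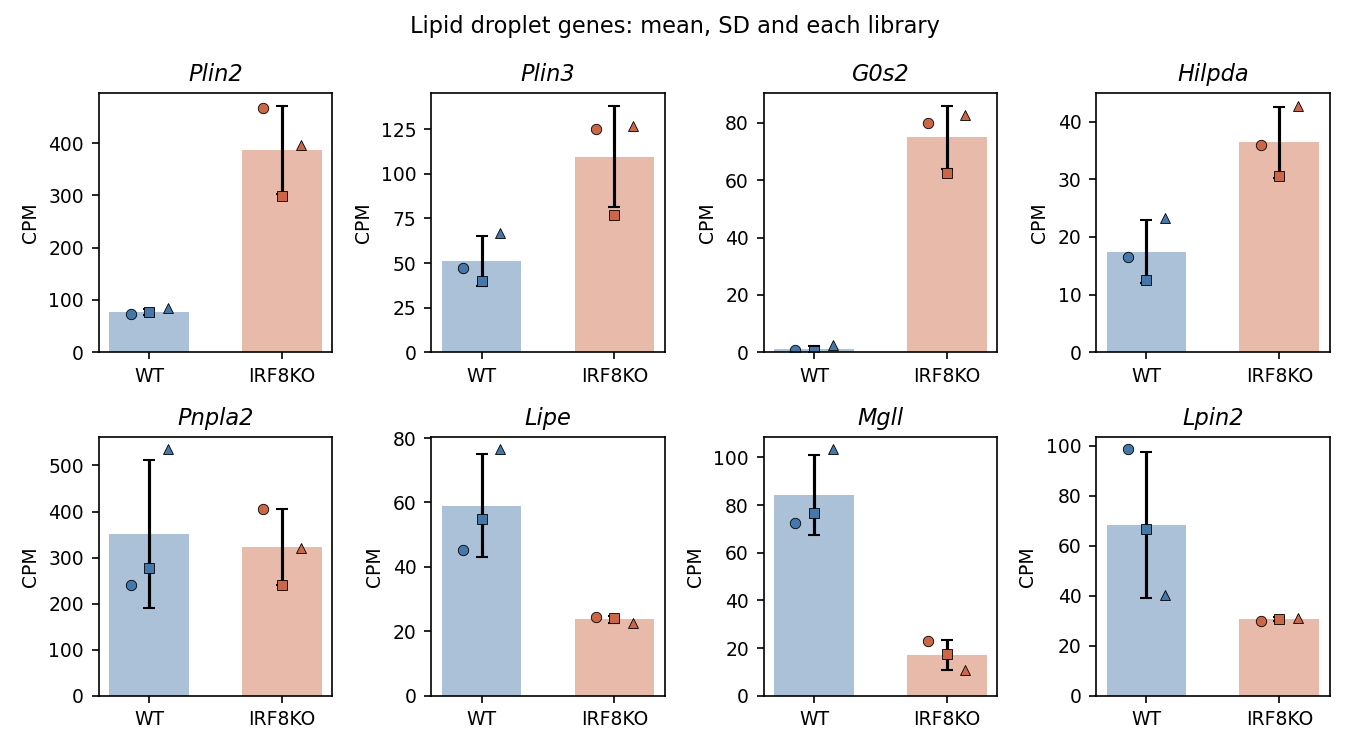
Level in CPM of Plin2, Plin3, G0s2, Hilpda, Pnpla2, Lipe, Mgll and Lpin2, chosen from the lipid droplet list. Bars are group means with SD, and there is 1 point per library (n = 3 WT and 3 IRF8KO libraries). Plin2, Plin3, G0s2 and Hilpda have the higher mean in IRF8KO, and Lipe, Mgll and Lpin2 the lower. The log2 fold changes were 6.02 for G0s2, 2.32 for Plin2 and -2.31 for Mgll.

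Fatty-acid uptake and oxidation was measured by a list of 25 genes, of which 20 were tested and 1 was called. Etfdh, which passes electrons from fatty-acid oxidation to the respiratory chain, fell from 13.9 ± 7.14 to 3.55 ± 2.12 CPM (log2 fold change -1.99, edgeR adjusted p = 0.0398), and lost its call in 6 of 17 alternatives. The median of the list was -0.26. The count was thus 1 of 20 where 19.1% of all tested genes were called.

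The fatty-acid-binding proteins, small carriers that move fatty acids through the cytosol, were scarce. Fabp5 (ENSMUSG00000027533, chromosome 3, 10012548 to 10016607, plus strand), the form found in skin, macrophages and nerve, had 6, 20 and 6 counts in WT and 22, 33 and 34 in IRF8KO. Scaled, it was at 1.17, 1.42 and 0.827 CPM in WT and at 3.53, 2.96 and 3.69 CPM in IRF8KO. All IRF8KO libraries were above all WT libraries, but the counts were small, and the log2 fold change of 1.55 (SE 0.70) did not pass (edgeR adjusted p = 0.144, range over 16 alternatives 0.068 to 0.317).

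Fabp3 (ENSMUSG00000028773, chromosome 4, 130308595 to 130315463, plus strand), the heart-type carrier, had 1, 2 and 1 counts in WT and 2, 5 and 3 in IRF8KO. It did not pass the filter on low counts. The scaled ratio of the summed counts was 2.49 (IRF8KO over WT, exact 95% interval 0.719 to 10.9), so a difference was not detectable at this depth. In addition, 19.6% of its exonic length is shared with Gm10570 and Zcchc17. Of its 50-base stretches, 29.2% also occur in the pseudogene Fabp3-ps1, which had 0 counts, and 4.13% in Zcchc17, which had 100 to 377 counts per library.

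Of the 14 intracellular lipid-binding genes described here, 11 were at 0 in every library, Fabp4 among them, and Fabp5 was the one that could be tested. Fabp7, the brain-type carrier of radial glia and astrocytes, had 0 counts in all WT libraries and 4, 12 and 2 counts in IRF8KO. Against a floor of 3 counts over the WT group that is at least 5.98-fold higher, with no test because the counts fell under the filter.

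Galectins bind beta-galactoside sugars on glycoproteins and lipids. Lgals1 (ENSMUSG00000068220, chromosome 15, 78926725 to 78930465, plus strand), which encodes galectin-1, was at 1.56, 2.41 and 6.20 CPM in WT replicates 1, 2 and 3 and at 124, 77.9 and 132 CPM in IRF8KO replicates 1, 2 and 3. Even the lowest IRF8KO library was far above the highest WT library, with 8, 34 and 45 counts behind the WT values and 772, 868 and 1219 behind the others. Lgals1 rose from 3.39 ± 2.47 to 111 ± 29.3 CPM, a log2 fold change of 5.03 (SE 0.49, edgeR adjusted p = 4.43e-05). It was called in each of the 16 alternatives in which it was tested. The log2 fold change ran from 3.98 with the offset for GC content and length to 5.74 without WT replicate 3. The annotated pseudogenes Lgals1-ps1 and Lgals1-ps2 had 0 counts.

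Lgals3 (ENSMUSG00000050335, chromosome 14, 47367751 to 47386160, plus strand), which encodes galectin-3, a sensor of damaged lysosomes and a ligand of the receptor TREM2, pointed the other way. It was at 3.50, 5.38 and 8.13 CPM in WT and at 2.89, 0.180 and 1.95 CPM in IRF8KO. The groups did not overlap, yet WT replicate 1 and IRF8KO replicate 1 were close, and IRF8KO replicate 2 had 2 counts where the other IRF8KO libraries had 18. The log2 fold change was -1.79 (SE 0.83) and was not called (edgeR adjusted p = 0.154, range over 16 alternatives 0.0454 to 0.289). The alternative that passed was the offset for GC content and length.

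Of 11 galectin-related genes listed, 10 were found in the files and 6 tested, of which 3 were higher, Lgals1 among them, and 1 lower (9.64% and 9.46% of all tested genes), with a median log2 fold change of 0.53. Lgals9, a tandem-repeat galectin, rose from 523 ± 228 to 1360 ± 201 CPM (log2 fold change 1.38, edgeR adjusted p = 0.0196), and Lgals3bp, a secreted glycoprotein that binds galectin-3, rose from 453 ± 203 to 1010 ± 191 CPM (log2 fold change 1.16, edgeR adjusted p = 0.0426). Lgals8, which marks broken endosomes for autophagy, fell from 44.5 ± 16.3 to 18.3 ± 8.78 CPM (log2 fold change -1.28, edgeR adjusted p = 0.0445). The Lgals9, Lgals3bp and Lgals8 calls were lost in 4, 5 and 9 of 17 alternatives. Lgals4 had a log2 fold change of -0.09 and was not called (edgeR adjusted p = 0.950), and its direction turned in 3 of 16 alternatives.

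Osteopontin, the product of Spp1 (ENSMUSG00000029304, chromosome 5, 104435118 to 104441050, plus strand), is a secreted ligand of integrins and CD44. It is among the best-known transcripts of damage-associated microglia, so the bases before the first of its 2 RefSeq starts are shown (GRCm38.p6, chr5:104434861-104435110, plus strand). Capitals mark TATAAA at -211, the interferon-response-type motif GAAANNGAA read on the other strand at -156, and the PU.1-type motif GAGGAAGT at -113.
Spp1: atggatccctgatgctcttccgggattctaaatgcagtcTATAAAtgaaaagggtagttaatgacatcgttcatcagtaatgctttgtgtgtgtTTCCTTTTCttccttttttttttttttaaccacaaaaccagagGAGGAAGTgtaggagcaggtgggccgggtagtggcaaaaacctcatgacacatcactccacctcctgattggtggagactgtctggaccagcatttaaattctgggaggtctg
These motifs were present in 13.6%, 8.56% and 3.20% of all windows. No match of the other 5 motifs searched lies in the window.

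Spp1 had 4, 14 and 2 counts in WT and 1, 1 and 0 counts in IRF8KO. It was at trace level in both groups and lower in all IRF8KO libraries, at 0.778, 0.991 and 0.276 CPM in WT and 0.161, 0.0897 and 0 CPM in IRF8KO. The scaled ratio of the summed counts, 20 in WT and 2 in IRF8KO, was 10.03 (WT over IRF8KO, exact 95% interval 2.44 to 88.5). That interval covers counting error and not the spread between libraries. With the filter removed, edgeR gave a log2 fold change of -2.94 with an adjusted p of 0.290, so the gene was not called.

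All 8 genes of the osteopontin receptor list were tested, and 2 were higher and 2 lower (9.64% and 9.46% of all tested genes), with a median log2 fold change of -0.44. Both of the higher genes, Cd44 and Itga4, had fewer than 10 counts in every WT library, so they passed the filter through the IRF8KO libraries and had to differ to be tested. Cd44 was at 0.195, 0.212 and 0.414 CPM in WT and at 10.1, 19.7 and 9.98 CPM in IRF8KO, a log2 fold change of 5.55 (SE 0.67, edgeR adjusted p = 0.000208). The Cd44 groups were far apart. Itga4, the alpha 4 integrin subunit, rose from 4 counts in all of WT to 8.23 ± 7.23 CPM (log2 fold change 5.81, edgeR adjusted p = 0.00319), with IRF8KO replicate 2, the library with neutrophil transcripts, highest at 16.4 CPM. Its log2 fold change was 9.02 without WT replicate 2, which held all 4 WT counts, and 4.88 without IRF8KO replicate 2.

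Of the integrin beta subunits listed, Itgb3 fell from 81.7 ± 16.2 to 19.0 ± 5.14 CPM (log2 fold change -2.10, edgeR adjusted p = 0.000858). Itgb1, the subunit shared by many integrins, fell from 98.4 ± 40.1 to 41.3 ± 16.4 CPM (log2 fold change -1.25, edgeR adjusted p = 0.0415), but lost its call in 8 of 17 alternatives. Itgb5, the third beta subunit of the list, was at 7568 ± 4353 CPM in WT and 4136 ± 1232 CPM in IRF8KO and was not called (log2 fold change -0.87, edgeR adjusted p = 0.196).

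GPNMB (Gpnmb, ENSMUSG00000029816, chromosome 6, 49036546 to 49070929, plus strand) is a glycoprotein of lysosomal and plasma membranes in macrophages laden with lipid. The bases before its RefSeq start (GRCm38.p6, chr6:49036268-49036517, plus strand) are shown with the ETS-IRF-type motif GGAANNGAA in capitals at -247, since this is a type of site that PU.1 can share with IRF8. The motif was present in 8.24% of all windows, and here too a match of letters is not evidence of binding.
Gpnmb: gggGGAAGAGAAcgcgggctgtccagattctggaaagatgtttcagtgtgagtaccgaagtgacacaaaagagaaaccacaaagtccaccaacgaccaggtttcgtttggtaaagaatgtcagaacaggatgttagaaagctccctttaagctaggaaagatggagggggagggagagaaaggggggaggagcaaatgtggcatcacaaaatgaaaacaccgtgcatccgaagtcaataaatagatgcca
The AP-1 motif TGANTCA, present in 7.81% of windows, begins at 9 bases after the start and lies outside the bases shown.

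Gpnmb was at 0.195, 0 and 8.0 CPM in WT replicates 1, 2 and 3 and at 42.5, 32.9 and 45.4 CPM in IRF8KO replicates 1, 2 and 3. WT replicate 3 held 58 of the 59 WT counts, and even so lay below every IRF8KO library. Gpnmb rose from 2.73 ± 4.56 to 40.3 ± 6.55 CPM, a log2 fold change of 3.91 (SE 1.07, edgeR adjusted p = 0.0248). Without WT replicate 3 the log2 fold change was 9.25. The call was lost without IRF8KO replicate 1 or 3, with library size alone and with DESeq2 (adjusted p = 0.148), while the direction was kept in all 16 alternatives in which it was tested.

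Of 7 genes listed as partners or relatives of GPNMB, 7 were tested and 3 were higher (9.64% of all tested genes): Cd44, Sdc4 and Tfec. Cd44 and Tfec passed the filter through the IRF8KO libraries alone, so their calls do not count as support for the list. The median log2 fold change of the 7 was 0.09. Sdc4, a heparan sulfate proteoglycan to which GPNMB binds, rose from 12.3 ± 3.90 to 43.0 ± 3.06 CPM (log2 fold change 1.80, edgeR adjusted p = 0.00300). Tfec, a macrophage member of the MiT/TFE family, had 0 counts in WT and 11, 44 and 14 counts in IRF8KO, at least 22.9-fold higher against a floor of 3 counts over the WT group (edgeR adjusted p = 0.00726).

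Insulin-like growth factor 1 (Igf1, ENSMUSG00000020053, chromosome 10, 87858265 to 87937042, plus strand) is a secreted growth factor that microglia supply to neurons and to myelinating cells. The bases before its RefSeq start, which lies inside the annotated gene span (GRCm38.p6, chr10:87860861-87861110, plus strand), are shown for comparison with those of Gpnmb. Capitals mark AGGTCA at -161, GGAANNGAA at -58 and the AP-1 motif TGANTCA at -37.
Igf1: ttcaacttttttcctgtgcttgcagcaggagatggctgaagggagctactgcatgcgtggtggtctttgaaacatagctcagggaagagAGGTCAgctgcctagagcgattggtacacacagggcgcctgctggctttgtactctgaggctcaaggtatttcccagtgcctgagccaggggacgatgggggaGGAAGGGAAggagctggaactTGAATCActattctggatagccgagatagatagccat
Gpnmb and Igf1 were the members with both GGAANNGAA and TGANTCA in their windows. In all, 7 of the 10 genes matched the promoter table, in 8 windows, and Fabp3, Lyz2 and Lgals3 held no match of the 8 motifs.

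Igf1 had 6, 7 and 0 counts in WT and 49, 156 and 108 in IRF8KO, or 1.17, 0.496 and 0 CPM against 7.87, 14.0 and 11.7 CPM. It was near the floor in WT and clearly counted in every IRF8KO library. The scaled ratio of the summed counts was 24.0 (exact 95% interval 13.8 to 45.6, counting error alone). Igf1 rose with a log2 fold change of 4.41 (SE 0.83, edgeR adjusted p = 0.00365). It was called in the 16 alternatives in which it was tested, with adjusted p up to 0.0343. The log2 fold change ran from 3.84 with library size alone to 5.54 with the replicate block and GC offset together.

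Of 18 genes of the insulin-like growth factor system, 6 were tested, 3 were higher and 2 lower (9.64% and 9.46% of all tested genes), with a median log2 fold change of 0.53. Of the 3 higher genes, Igf1 and Igfbp6 had fewer than 10 counts in every WT library and passed the filter through IRF8KO alone, while Igf1r, one of the 2 lower genes, passed it through WT alone. The IGF1 receptor gene, Igf1r, fell from 12.7 ± 0.745 to 2.03 ± 1.34 CPM (log2 fold change -2.65, SE 0.62, edgeR adjusted p = 0.0118), and Irs2, the adaptor that carries its signal, fell from 54.1 ± 4.95 to 19.1 ± 3.49 CPM (log2 fold change -1.50, edgeR adjusted p = 0.00393). Insr, the insulin receptor, rose from 12.9 ± 7.98 to 45.5 ± 17.2 CPM (log2 fold change 1.83, edgeR adjusted p = 0.0155), with 3 of 17 alternatives losing the call. The binding protein gene Igfbp6 rose from 0.388 ± 0.381 to 5.86 ± 1.54 CPM (log2 fold change 3.92, edgeR adjusted p = 0.00727). It lost its call without IRF8KO replicate 3 (edgeR adjusted p = 0.0520), and its log2 fold change was 5.11 without WT replicate 3.

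Lyz2 (ENSMUSG00000069516, chromosome 10, 117277331 to 117282321, minus strand) encodes the lysozyme of macrophages, neutrophils and their relatives, which cuts bacterial cell walls. It was at 279, 292 and 528 CPM in WT and at 1278, 851 and 1228 CPM in IRF8KO. WT replicate 3 was the highest WT library and IRF8KO replicate 2 the lowest of the others, and they did not meet. Lyz2 rose 3.06-fold in mean CPM, from 366 ± 140 to 1119 ± 233, with a log2 fold change of 1.61 (SE 0.35, edgeR adjusted p = 0.00805). Without IRF8KO replicate 2, the library with neutrophil transcripts, the log2 fold change was 1.78 (edgeR adjusted p = 0.0130). The call was lost with the GC offset (log2 fold change 1.04, edgeR adjusted p = 0.0502) and without IRF8KO replicate 3 (edgeR adjusted p = 0.0596). Its paralogue Lyz1, with which Lyz2 shares 15.4% of its 50-base stretches, had 2, 1 and 0 counts in IRF8KO and 0 in WT.

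Cd52 (ENSMUSG00000000682, chromosome 4, 134082448 to 134095082, minus strand) encodes a very short glycoprotein anchored in the membranes of leukocytes. It was at 60.9, 54.1 and 91.3 CPM in WT and at 130.5, 101.0 and 150.2 CPM in IRF8KO. The highest WT library lay just below the lowest IRF8KO library. Mean CPM was 68.8 ± 19.8 and 127 ± 24.8, and the log2 fold change of 0.89 (SE 0.30) did not pass (edgeR adjusted p = 0.0576). The call was gained in 7 of 17 alternatives, with adjusted p from 0.00288 to 0.866 over them all, and with the GC offset the log2 fold change was 0.06. Of its exonic length, 14.5% is shared with Crybg2.

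**Figure D3:**
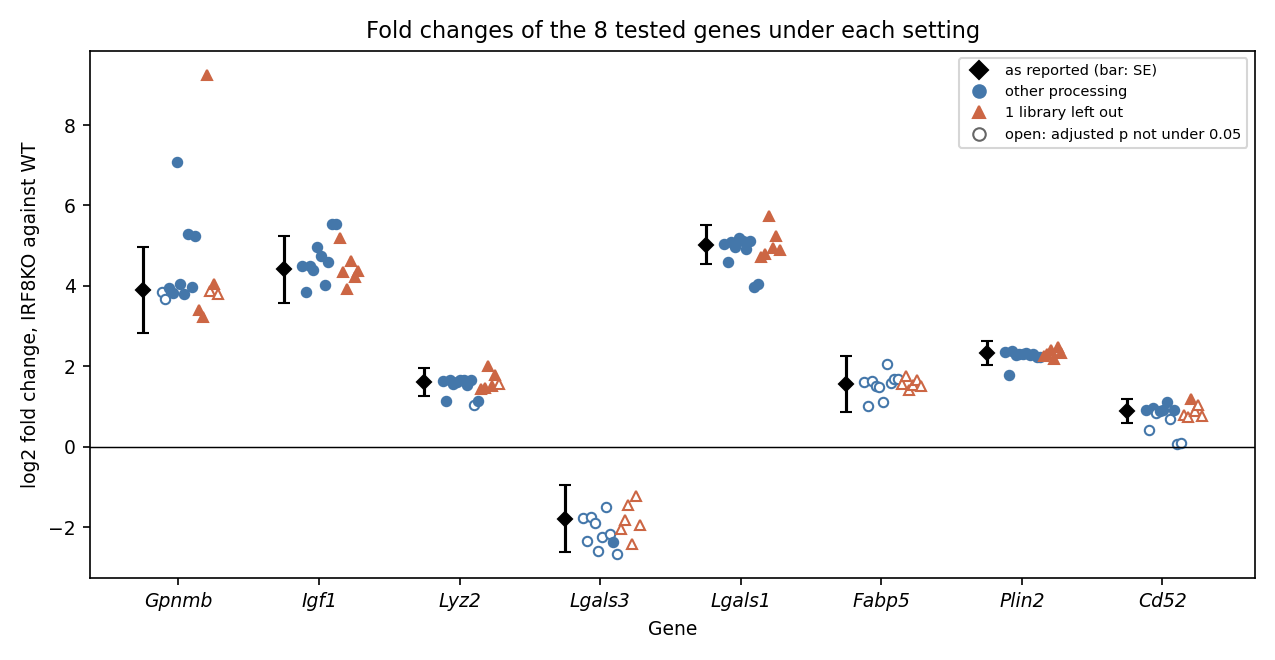
Log2 fold change of each tested gene among the 10 (IRF8KO over WT) under the main edgeR fit and each of up to 17 alternatives, as 1 point per setting. Each gene stays on its side of 0 throughout, with Gpnmb spread widest, from 3.23 to 9.25, and Cd52 reaching down to 0.06.

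The wider damage-associated list held 40 further genes, of which 39 were found and 36 tested. Of these, 16 were higher and 6 lower, against 9.64% and 9.46% of all tested genes, with a median log2 fold change of 0.91. Of the 16 higher genes, 4 (Cybb, Ch25h, Gpx3 and Apoc1) met the filter through IRF8KO alone, and of the 6 lower genes 1, Hif1a, through WT alone. Apoc1, an apolipoprotein next to Apoe in the genome, rose from 1.18 ± 0.717 to 2347 ± 226 CPM (log2 fold change 10.87, edgeR adjusted p = 1.12e-06). Cst7, a lysosomal protease inhibitor, rose from 7.30 ± 0.528 to 329 ± 82.4 CPM (log2 fold change 5.49, edgeR adjusted p = 2.06e-06). With the GC offset the log2 fold changes were smaller, at 9.66 for Apoc1 and 4.57 for Cst7. Ch25h, which hydroxylates cholesterol, had 3 counts in WT and a scaled ratio of 311 (exact 95% interval 106 to 1511), while the chemokine gene Ccl6 fell from 258 ± 55.9 to 29.7 ± 2.53 CPM (log2 fold change -3.12, edgeR adjusted p = 4e-05).

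Apoe, the lipid carrier, rose with a log2 fold change of 7.41 (edgeR adjusted p = 6.45e-05). Trem2, the lipid receptor upstream of much of this programme in damaged brain, had a log2 fold change of 0.48 and was not called (edgeR adjusted p = 0.402, range over 17 alternatives 0.00604 to 0.889, with the lowest without WT replicate 3). Of the 10 genes and the 40 further ones together, 44 were tested, 21 were higher and 6 lower. The shares over all tested genes were the same 9.64% and 9.46%, and the limit of the filter was the same. Both lists were chosen with earlier results of these data known, so these counts describe them and are not support.

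**Figure D4:**
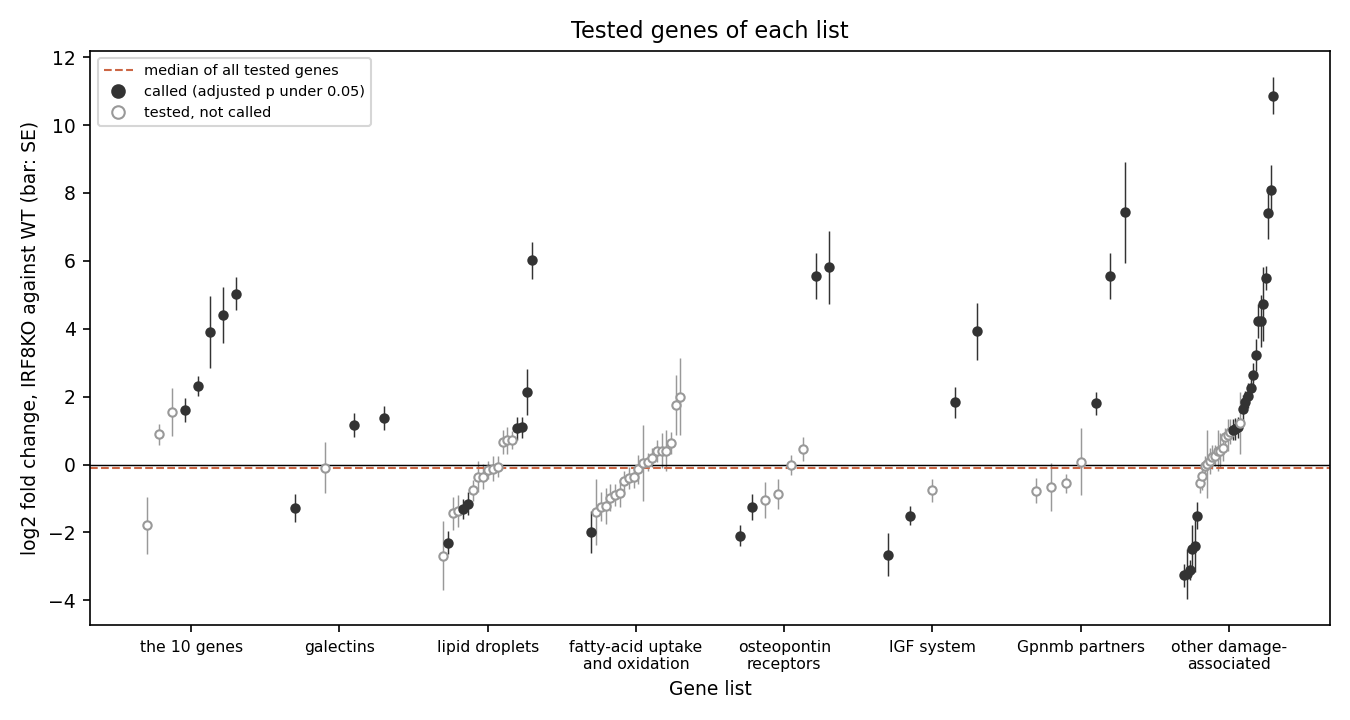
Log2 fold change of IRF8KO over WT for each tested gene of the 10 and of the related lists, with the 10 genes left out of the other lists. The 8 of the 10 genes that were tested have a median of 1.97, set against -0.11 for all tested genes.

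Finally, the genes whose levels ran most like those of Lgals1 and Plin2, the members with the smallest p-values, were ranked by Pearson's r of log2 CPM over the 6 libraries, among 6048 genes whose mean was at least 10 CPM. Since the 6 libraries fall into 2 groups, such values mostly reflect the group difference and are a description. Nearest to Lgals1 were Pxdc1 (r = 0.999), Coq6 (0.999) and Cxcl14 (0.999), of which Coq6 was not called (edgeR adjusted p = 0.0878). Cxcl14, a chemokine gene, rose from at most 1.38 CPM in WT to at least 89.5 CPM in IRF8KO. Nearest to Plin2 were Ctdsp1 (r = 0.999), Ly6a (0.998) and Mcm3ap (0.998). Ly6a, a leukocyte surface antigen, was at 6.23, 6.23 and 6.62 CPM in WT and at 53.1, 36.0 and 48.1 CPM in IRF8KO, so its spread between libraries ran like that of Plin2, with IRF8KO replicate 2 the lowest of its group in both. Mcm3ap, at 18.9 to 19.0 CPM in WT and 21.7 to 22.3 CPM in IRF8KO, was not called (log2 fold change 0.22, edgeR adjusted p = 0.655), and its direction turned with library size alone.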

How the data were processed

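Polyadenylated RNA of sorted microglia was measured in 3 WT and 3 IRF8KO libraries, grouped by the labels. The authors deposited raw read counts per gene, 1 file per library, in the layout that STAR writes. The submitters' processing notes name STAR 2.5.2b, Picard 2.17.11, bcl2fastq, Subread, featureCounts and the mm10 genome, without saying which step each served. The count that ignores strand was used, since the chemistry marks no strand. Reads over more than 1 gene (8.20% to 10.8% of uniquely mapped reads) stand in a summary line of their own and in no gene's count, so overlapping genes lose them. Reads outside genes (2.44% to 7.70% of uniquely mapped reads) stayed out of library sizes. Of 49585 genes, 49326 were matched to GENCODE M21 (GRCm38) and 259 were not.

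The test was that of edgeR 4.0.16 (R 4.3.3): filterByExpr (minimum count 10), TMM scaling, a quasi-likelihood model of genotype alone, and Benjamini-Hochberg adjustment over 11041 genes at 0.05. The scripts were tested on simulated data, with a limit on false calls that was not applied to DESeq2. CPM use the TMM-scaled library sizes, and correlations used log2 CPM with a prior count of 2. Floors are 3 counts over a group. Ratios carry exact 95% conditional binomial intervals. The libraries have no molecular identifiers, so intervals and floors cover counting error only. The labels give replicate numbers, with no word on single mice, litters or days, so p-values measure the spread between these libraries.

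The 10 genes and the 9 related lists were chosen with earlier results of these data known. Genes were named by a rule: the members, up to 4 called genes with the smallest p per list, Apoe, Irf8, Trem2, the 3 genes most like Lgals1 and Plin2, and counted family members. The alternatives were DESeq2 1.42.0, limma-voom (limma 3.58.1), library size alone, Apoe left out, 2 other filters, both strand columns, a replicate block, a GC and length offset, both together, and each library left out. Promoter sequences are from RefSeq (GRCm38.p6). Protein sequences were not used here, and 1 listed gene is not reported here.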

Additional observations from a re-analysis of the deposited data

How the results depend on the processing

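Of 661 values for 40 named genes over the 17 alternatives, 597 kept their direction and side of the threshold, 49 lost a call, 11 gained one and 4 turned. The turned values were for Lgals4 (-0.09 by the main test), at 0.31 with the second strand column, 0.44 without WT replicate 2 and 0.27 without IRF8KO replicate 1, in a range of -0.36 to 0.44 with 1 library left out, and for Mcm3ap, at -0.28 with library size alone. The cause was not tested.

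The 2109 calls over all genes became 910 (without IRF8KO replicate 3) to 4003 (without WT replicate 3) when 1 library was left out, and 1863 to 2696 under the other alternatives. Of the 10 genes, 5 were called higher by the main test, 3 (without IRF8KO replicate 3, where the Gpnmb and Lyz2 calls were lost) to 6 (without WT replicate 3) with 1 library left out, and 3 with at least 10 counts in every library, where only Plin2, Lyz2 and Cd52 could be tested. Over all genes, 524 of 11440 were called higher without IRF8KO replicate 3, 2168 of 11953 without WT replicate 3 and 651 of 11041 with library size alone. The offset for GC content and length called 1 of 8 lower, Lgals3 (log2 fold change -2.37, edgeR adjusted p = 0.0454), with 1255 of 11034 genes lower in all. The other alternatives called 4 to 6 higher. Relative to the median of all genes, Plin2 was at 2.43 by the main test and 2.40 with library size alone, and Cd52 at 1.00 and 1.03. With the GC offset Plin2 was at 2.24 and Cd52 at 0.07 on that scale.

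Deviations of WT and IRF8KO libraries with the same replicate number correlated at -0.26, 0.33 and 0.11. Those with different numbers correlated at -0.42 to 0.35. With 3 libraries per group, these values cannot decide whether the numbers mark pairs. With the replicate block, 2353 genes were called and 6 of the 10 genes were higher. Spp1, Fabp3, Fabp5 and, in WT, Igf1 rest on few counts.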
